A study of Mus musculus with 9 samples.

Results

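Aminoacyl-tRNA synthetases are the enzymes that attach each amino acid to its tRNA. They were taken from the gene table by their symbols, that is a letter for the amino acid followed by ars with no suffix, 1 or 2, together with Eprs, Farsa, Farsb and Ears2. This rule found 37 of the 54532 listed genes, 20 for cytosolic enzymes (symbols without 2) and 17 for mitochondrial enzymes (symbols ending in 2). The rule itself uses no measured value, but it was chosen with earlier results of these data known. The genes were measured by RNA sequencing in b.End3 cells, a line labelled as endothelial cells of mouse brain microvessels, strain C57BL/6. The organism label is mouse, while the growth protocol and the study's methods call the cells rat. Ctrl cells were untreated. Ep1 and Ep2 cells underwent photodynamic therapy (PDT), in which a photosensitizer and light generate reactive oxygen species. Porfimer sodium (300 µg/mL) was given for 90 min, followed by light of 635 nm with an irradiance of 100 mW/cm2. The light dose was 10 J/cm2 in Ep1 and 20 J/cm2 in Ep2. Each group had 3 libraries. None of the libraries received the photosensitizer alone or light alone, so these parts of the treatment cannot be told apart from PDT as a whole, and the time between irradiation and lysis is not given in the sources used here. No label ties the 3 libraries of a group to separate cultures, so the p-values measure the spread between these libraries, which may be technical.

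Each synthetase activates its amino acid with ATP and transfers it to the matching tRNA, which then carries it to the ribosome. Cells hold separate sets of these enzymes for the ribosomes of the cytosol and for those of the mitochondrion, both encoded in the nucleus. For glycine and lysine, the genes without suffix (Gars and Kars) make the enzymes of both compartments, and mitochondrial glutamine is attached through a different route, which starts from glutamate. Farsa and Farsb encode the subunits of the cytosolic phenylalanyl enzyme, and Eprs encodes a fused enzyme for glutamate and proline. Several cytosolic synthetases are joined in the multi-tRNA synthetase complex (MSC). Many cytosolic synthetase genes are known as targets of ATF4, a transcription factor induced when amino acids run short or when stress kinases phosphorylate eIF2.

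The element that ATF4 binds together with C/EBP proteins is written here as TGATGNAA, where N is any base. RefSeq promoters (build GRCm38.p6) were matched for 27 of the 37 genes, and the 250 bases before the transcription start were searched on both strands. Cars, Hars, Hars2, Lars, Nars, Rars, Vars, Wars and Pars2 were among those not matched. The element was found for 3 of 13 cytosolic genes and for 0 of 14 mitochondrial genes, beside 3.45% of 32851 promoters of the same length. The matches are in the alanyl (Aars), glycyl (Gars) and threonyl (Tars) synthetase genes. They are shown as windows of 25 bases on the strand of the gene, with the match in capitals. All of them lie on the opposite strand, so the capitals show the reverse complement of the element.

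Aars: ttcttgagcaTTGCATCAgccgagc

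Gars: ggctgcgctaTTTCATCAtgcaccg

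Tars: aggagtcccgTTGCATCAgctggtt

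The Aars window is chr8:111033720-111033744 on the plus strand, and its match begins 112 bases before the RefSeq start. The listed Aars gene begins upstream of this window. The Gars window is chr6:55037961-55037985 on the plus strand, with a match 30 bases before the start. The Tars window is chr15:11399659-11399683 on the minus strand, with a match 15 bases before the start. The whole searched stretch of Tars, chr15:11399659-11399908, is shown because it also holds the element of nuclear respiratory factor 1, which begins 169 bases before the start.

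Tars: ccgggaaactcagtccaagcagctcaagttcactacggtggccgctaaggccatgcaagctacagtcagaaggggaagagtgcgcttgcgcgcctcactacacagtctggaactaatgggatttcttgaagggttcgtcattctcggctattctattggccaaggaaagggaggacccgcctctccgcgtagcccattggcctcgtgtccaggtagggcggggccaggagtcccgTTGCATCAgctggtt

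The element of nuclear respiratory factor 1 was present for 2 of 13 cytosolic genes (Kars and Tars) and 0 of 14 mitochondrial genes, beside 3.74% of promoters. The core of the antioxidant response element (TGACNNNGC) was present for Aars, Mars, Aars2 and Lars2, beside 10.2% of promoters. A match is a description of the letters in these windows and not a bound site.

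Levels are given in FPKM, that is fragments scaled to the listed length of the gene and the size of the library. Comparisons between genes therefore depend on the listed lengths. Totals per library were between 16240688 and 19509225 fragments, and the least covered synthetase in any library (Pars2) still had 127 fragments. The listed positions follow GRCm38. The endothelial label was checked on 14 markers. Only Flt1, Eng and Egfl7 reached 1 FPKM in all libraries, Pecam1 did not exceed 0.242 FPKM, and Emcn, Erg and Sox17 were listed at 0. Of 9 epithelial markers, the keratin genes Krt8 (between 562 and 714 FPKM), Krt18 (231 to 332) and Krt19 (135 to 324) were high. Krt7 was listed at 0, Cdh1, Cldn3, Cldn4 and Cldn7 did not exceed 0.177 FPKM, and Epcam was between 0.607 and 2.03 FPKM. Of 8 fibroblast and mural markers, 2 reached 1 FPKM in all libraries, Col3a1 (30.8 to 41.2) and Col1a1 (5.92 to 7.64). The summed endothelial markers were between 11.4 and 11.9 FPKM in Ctrl, between 11.3 and 13.1 in Ep1 and between 14.4 and 15.4 in Ep2. The summed epithelial markers (3 of 9 above 1 FPKM in all libraries) were between 1029 and 1081 FPKM in Ctrl, between 937 and 1041 in Ep1 and between 1155 and 1373 in Ep2. The part of these shifts in the results was not tested. In bulk libraries of this kind, fewer cells of a type and less RNA per cell cannot be told apart.

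In Ctrl, the cytosolic synthetases were expressed well above the mitochondrial ones. The median level over the 20 cytosolic genes was 38.4 FPKM and that over the 17 mitochondrial genes 5.27 FPKM, and 18 of the 20 cytosolic genes lay above every mitochondrial gene. The highest cytosolic gene was Nars (asparaginyl), with 153 ± 5.18 FPKM (SD, n = 3), and the lowest Wars (tryptophanyl), with 13.4 ± 0.641 FPKM. Among the mitochondrial genes, Yars2 (tyrosyl) was highest, with 16.2 ± 0.516 FPKM, and Nars2 (asparaginyl) lowest, with 1.44 ± 0.266 FPKM. Asparagine was therefore served by the highest cytosolic and the lowest mitochondrial gene. The ratio of the cytosolic to the mitochondrial level, formed for 16 pairs of genes with the same amino acid, was 106 for asparagine, 1.30 for tyrosine and 7.94 at the median. Fars2 was paired once with Farsa and once with Farsb. These ratios depend on the listed lengths, which were 2632 bases for Nars, 6967 for Nars2, 5943 for Yars and 3149 for Yars2. In fragments of Ctrl replicate 1, the leucine pair was closer (3659 for Lars, 3026 for Lars2) than the tyrosine pair (2471 for Yars, 1017 for Yars2). For tyrosine, the libraries were between 20.7 and 21.6 FPKM for Yars and between 15.7 and 16.7 FPKM for Yars2 and did not overlap.

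**Figure D1:**
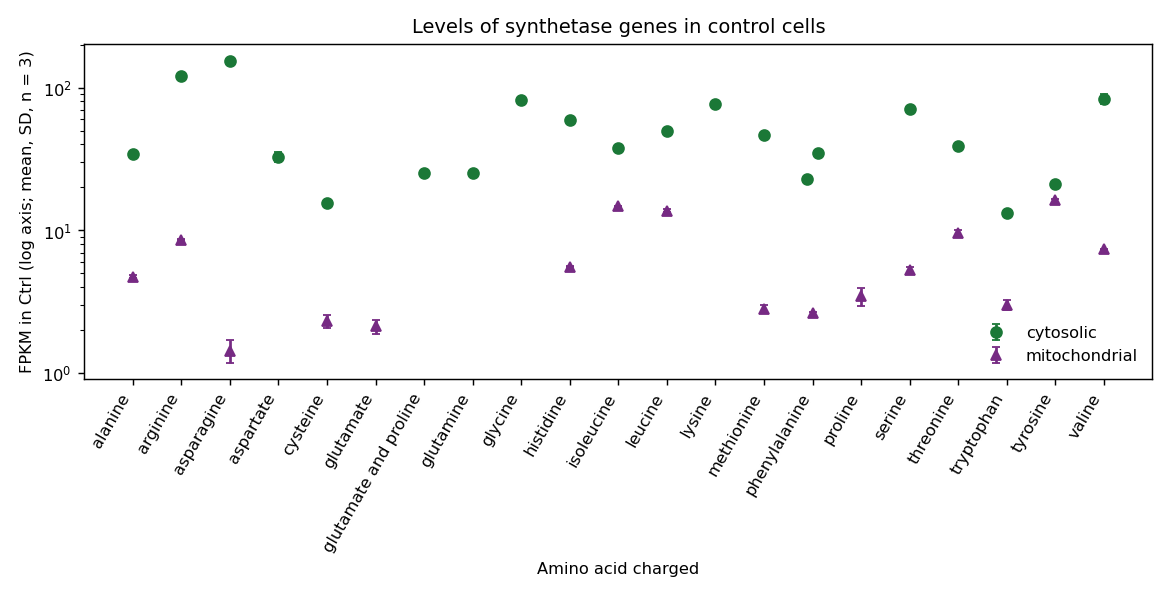
Mean FPKM of the 20 cytosolic and 16 of the 17 mitochondrial synthetase genes in the Ctrl libraries (log axis), with the SD over 3 libraries, by the amino acid that the enzyme attaches. Circles are cytosolic genes and triangles mitochondrial genes, and phenylalanine has a pair of circles for Farsa and Farsb. The gap between circle and triangle is widest for asparagine (153 against 1.44 FPKM) and narrowest for tyrosine (21.1 against 16.2 FPKM).

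At the lower light dose, the synthetase genes moved little. With limma on log2(FPKM + 1) and adjustment over all tested genes, 0 of 37 genes were called (adjusted p below 0.05) in Ep1 against Ctrl, where 6.32% of all tested genes were called higher and 4.97% lower. At an unadjusted p below 0.05, 1 gene was higher and 4 were lower. With voom on the recovered fragments, 1 was called higher (Gars) and 2 lower (Farsa and Tars2). Ep2 replicate 1 enters this comparison only through the shared spread, and without it 1 gene was called higher (Gars) and 3 lower (Farsa, Aars2 and Tars2). No synthetase was a differentially expressed gene (DEG), for which the log2 fold change must also exceed 0.6 in size, beside 0.571% of all tested genes higher and 0.222% lower. The median log2 fold change was 0.02 for the cytosolic and -0.05 for the mitochondrial genes, beside -0.01 for all genes. In 4 genes all Ep1 libraries lay above all Ctrl libraries, and in 7 all lay below, while 20.8% and 20.5% of all tested genes separated in these ways.

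Gars, the glycyl enzyme of both compartments, had 83.4, 82.6 and 81.2 FPKM in Ctrl and 91.4, 95.3 and 94.6 FPKM in Ep1. All Ep1 libraries were above all Ctrl libraries, and the log2 fold change was 0.18 ± 0.05 (SE, adjusted p = 0.0543). Farsa, the catalytic subunit of the phenylalanyl enzyme, had 23.1, 23.3 and 22.1 FPKM in Ctrl and 18.9, 20.3 and 20.4 FPKM in Ep1. Its Ep1 libraries were all below Ctrl, with a log2 fold change of -0.19 ± 0.06 (adjusted p = 0.0546). Its partner Farsb had a log2 fold change of 0.03 ± 0.06, with overlapping groups.

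At the higher dose, most synthetase genes were lower and a few cytosolic ones were higher. In Ep2 against Ctrl, 23 of 37 genes (62.2%) were called lower, 3 (8.11%) higher and 11 were not called. Among all tested genes, 53.2% were called, with 29.3% lower and 23.9% higher. Of the 20 cytosolic genes, 3 were higher and 11 lower (median log2 fold change -0.18). In the mitochondrial set, 0 of 17 genes were higher and 12 lower, with a median of -0.32, and 16 of the 17 log2 fold changes were below 0. No mitochondrial gene was higher at an unadjusted p below 0.05 or with voom either. The median over all tested genes was -0.03. The DEGs were 5 synthetases, all lower, namely Aars2, Vars, Tars2, Mars and Farsa, beside 5.87% of all genes lower and 3.3% higher. The cutoff of 0.6 was applied on log2(FPKM + 1), which understates the changes of genes at low levels. Sars2, whose mean fell by 36.8%, was not a DEG (-0.54), while Farsa, whose mean fell by 35.9%, was (-0.61). In 25 synthetase genes all Ep2 libraries lay below all Ctrl libraries and in 3 all lay above, beside 32.7% and 27.0% of all genes.

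**Figure D2:**
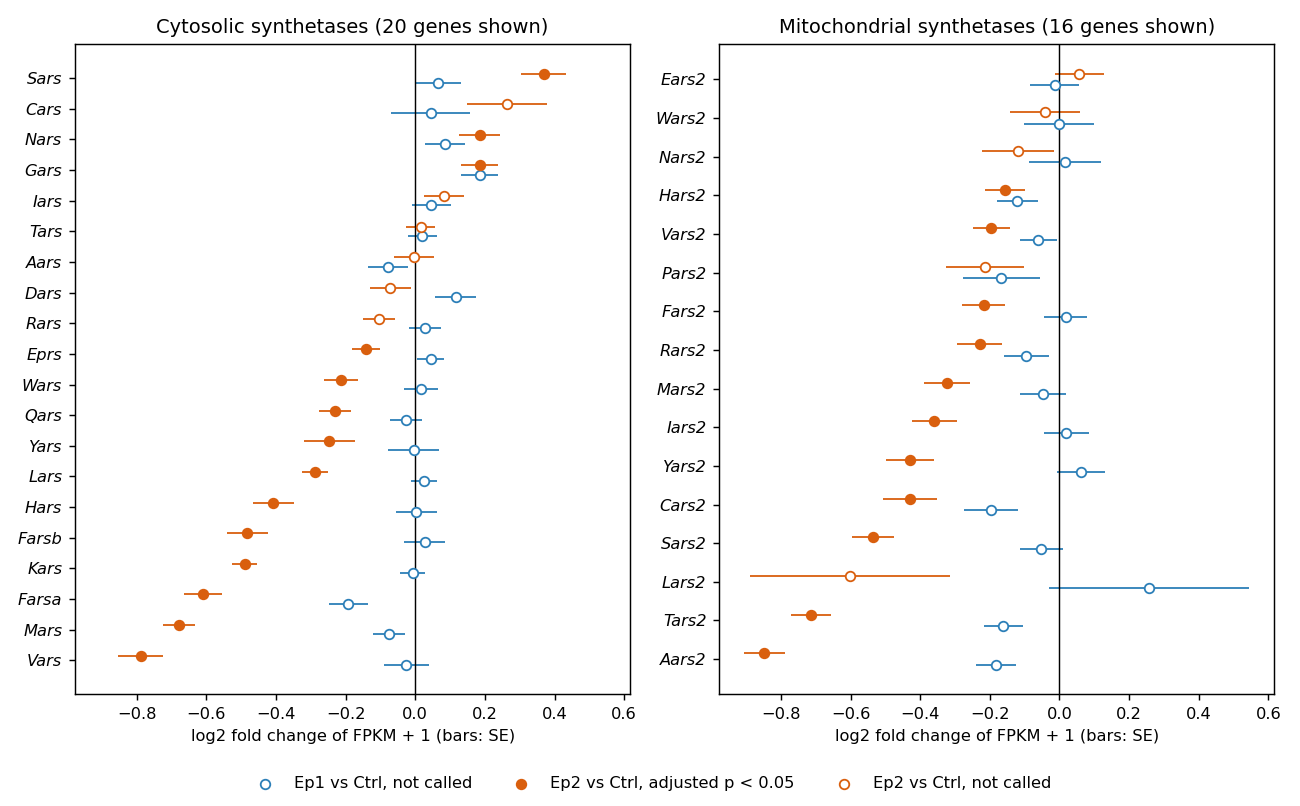
Log2 fold change of FPKM + 1 against Ctrl for the 20 cytosolic and 16 of the 17 mitochondrial synthetase genes, sorted by the value in Ep2. Points are limma estimates and bars the SE, filled points have an adjusted p below 0.05. The Ep1 points are all open and run from 0.26 (Lars2) to -0.20 (Cars2). The Ep2 points run from 0.37 (Sars) to -0.79 (Vars) on the cytosolic side. On the mitochondrial side they run from 0.06 (Ears2) to -0.85 (Aars2).

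The genes that rose at 20 J/cm2 attach serine, asparagine and glycine. Sars (seryl, chr3:108424865-108445209) had 71.5, 70.2 and 71.9 FPKM in Ctrl, 75.1, 75.0 and 73.8 in Ep1 and 104, 89.5 and 84.6 in Ep2. The 3 groups did not overlap, and Ep2 exceeded Ctrl by a log2 fold change of 0.37 ± 0.06 (adjusted p = 0.00111). Nars had 151, 149 and 159 FPKM in Ctrl, 164, 162 and 161 in Ep1 and 192, 165 and 166 in Ep2. It was higher in Ep2 than in Ctrl by 0.18 ± 0.06 (adjusted p = 0.0233), with adjusted p-values between 0.00329 and 0.0801 over 17 alternatives and a loss of the call without Ctrl replicate 1 (0.0663) or Ctrl replicate 2 (0.0801). Gars had 101, 86.5 and 94.7 FPKM in Ep2 and was above Ctrl by 0.18 ± 0.05 (adjusted p = 0.0155), the same size as in Ep1.

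Ep2 replicate 1 was the highest Ep2 library for 15 of the 20 cytosolic genes and for 8 of the 17 mitochondrial genes. This count was not made over all tested genes, so it cannot be read as particular to the synthetases. The library also had more genes above 0 (20981) than Ep2 replicate 2 (20619) and Ep2 replicate 3 (20375). Summed over the cytosolic genes, Ep2 replicate 1 had 1028 FPKM, beside 938 and 932 in the other Ep2 libraries and between 1041 and 1049 in Ctrl. Without this library, 3 cytosolic genes were called higher and 12 lower. For Cars (cysteinyl), the Ep2 libraries had 23.4, 17.7 and 16.1 FPKM, beside 16.3, 14.6 and 15.7 in Ctrl. The groups overlapped, and the log2 fold change of 0.26 ± 0.11 did not pass (adjusted p = 0.08).

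The largest falls among cytosolic genes were those of the valyl, methionyl and phenylalanyl enzymes. Vars (chr17:35000987-35016322) had 88.5, 86.3 and 76.5 FPKM in Ctrl, 81.0, 81.7 and 83.6 in Ep1 and 51.8, 47.1 and 45.3 in Ep2. Its mean fell by 42.6% from Ctrl to Ep2, a log2 fold change of -0.79 ± 0.06 (adjusted p = 1.58e-05). Mars (chr10:127296221-127311786), whose enzyme also charges the initiator tRNA, had 47.5, 47.0 and 44.9 FPKM in Ctrl, 42.4, 45.1 and 44.6 in Ep1 and 29.9, 28.7 and 27.4 in Ep2, a change of -0.68 ± 0.05 (adjusted p = 6.72e-06). For both genes, Ep1 overlapped Ctrl and Ep2 lay below all other libraries. The listed Mars gene shares 68 bases with Ddit3 on the other strand, and whether reads were counted by strand is not given in the sources used here.

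Farsa (chr8:84856989-84869257) had 15.7, 14.5 and 13.7 FPKM in Ep2, below all Ctrl and Ep1 libraries (-0.61 ± 0.06, adjusted p = 2.77e-05). Farsb had 23.5, 24.1 and 26.6 FPKM in Ep2, beside 33.6, 34.2 and 36.9 in Ctrl (-0.48 ± 0.06, adjusted p = 0.000138). The subunits of the phenylalanyl enzyme were thus both lower in Ep2. Kars, which like Gars serves both compartments, had 77.5, 77.8 and 75.7 FPKM in Ctrl, 76.5, 78.8 and 74.5 in Ep1 and 53.7, 54.8 and 55.1 in Ep2. Its log2 fold change of -0.49 ± 0.04 (adjusted p = 9.68e-06) had the opposite sign to that of Gars. The remaining cytosolic genes called lower were Hars (-0.41), Lars (-0.29), Yars (-0.25), Qars (-0.23), Wars (-0.21) and Eprs (-0.14). Wars, the lowest cytosolic gene, had 13.6, 13.9 and 12.6 FPKM in Ctrl, 13.4, 13.5 and 13.7 in Ep1 and 11.9, 11.1 and 11.1 in Ep2.

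The MSC holds 8 of the synthetases, encoded by Dars, Eprs, Iars, Kars, Lars, Mars, Qars and Rars. In Ep2 against Ctrl, 5 of the 8 were called lower and 0 higher, beside 29.3% and 23.9% of all genes, with a median of -0.19, and none was higher at an unadjusted p below 0.05 or with voom. Of the 12 cytosolic genes outside the complex, 6 were lower and 3 higher, with a median of -0.11. By the fold of the enzyme, 6 of 9 cytosolic class I genes and 4 of 10 class II genes were lower, and the 3 higher genes all encode class II enzymes. In the mitochondrial set, class I (6 of 9 lower) and class II (6 of 8 lower) gave like counts. These counts are descriptions, and the difference between the classes was not tested.

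The cytosolic genes that were not called in Ep2 included those with the ATF4 element other than Gars. Aars had 34.0, 34.8 and 33.8 FPKM in Ctrl and 37.5, 33.4 and 31.6 in Ep2 (log2 fold change 0.00 ± 0.06). Tars had 38.1, 38.8 and 39.5 FPKM in Ctrl and 41.2, 38.3 and 38.2 in Ep2 (log2 fold change 0.02 ± 0.04). The groups of both genes overlapped. Of the 3 genes with the element, 1 was thus called higher and 0 lower, beside 23.9% and 29.3% of all genes. Iars (0.08), Dars (-0.07) and Rars (-0.10) also did not pass.

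Among mitochondrial synthetases, the alanyl and threonyl genes fell most. Aars2 (chr17:45506841-45520843) had 4.90, 4.69 and 4.68 FPKM in Ctrl, 4.28, 4.13 and 3.82 in Ep1 and 2.35, 2.13 and 2.12 in Ep2. The groups did not overlap at either dose, and the mean fell by 53.7% from Ctrl to Ep2 (log2 fold change -0.85 ± 0.06, adjusted p = 6.72e-06). Tars2 (chr3:95739976-95760206) had 9.69, 10.0 and 9.14 FPKM in Ctrl, 8.34, 8.51 and 8.62 in Ep1 and 5.93, 5.31 and 5.19 in Ep2, again with no overlap (-0.71 ± 0.06, adjusted p = 1.35e-05). The cytosolic genes of the same amino acids, Aars and Tars, were those given above as not called.

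Yars2, the highest mitochondrial gene, had 16.7, 16.2 and 15.7 FPKM in Ctrl, 15.9, 17.6 and 17.5 in Ep1 and 10.6, 12.5 and 12.4 in Ep2 (-0.43 ± 0.07, adjusted p = 0.000613). All its Ep2 libraries lay below those of the other groups. Cars2 (-0.43), Iars2 (-0.36), Mars2 (-0.32), Rars2 (-0.23), Fars2 (-0.22), Vars2 (-0.20) and Hars2 (-0.16) were among the others called lower. Cars2 shares 984 bases with Naxd, Iars2 2034 bases with Rab3gap2 and Fars2 920 bases with Nrn1 on the other strand, so reads of these genes may be mixed. Hars2 shares 198 bases with Hars, which lies on the other strand and had 59.5 FPKM in Ctrl beside 5.59 FPKM of Hars2, so the same holds for the histidine pair.

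The mitochondrial genes that were not called were Lars2, Pars2, Nars2, Wars2 and Ears2. Nars2, the lowest of all, had 1.23, 1.74 and 1.35 FPKM in Ctrl and 1.02, 1.44 and 1.27 in Ep2, with a log2 fold change of -0.12 ± 0.10. Ears2 (glutamyl), whose enzyme also begins the glutamine route, was the mitochondrial gene with a log2 fold change above 0 (0.06 ± 0.07), with 2.26, 2.24 and 2.24 FPKM in Ep2 beside 2.34, 1.86 and 2.20 in Ctrl. It shares 89 bases with Ubfd1. On the log2(FPKM + 1) scale, the changes of genes at such levels are understated.

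Summed over the 16 mitochondrial genes other than Lars2, the level was between 94.3 and 96.8 FPKM in Ctrl, between 90.2 and 93.5 in Ep1 and between 69.1 and 72.5 in Ep2, and the groups did not overlap. The share of fragments from the mitochondrial genome itself was between 1.90 and 1.99% in Ctrl, up to 2.08% in Ep1 and between 2.04 and 2.49% in Ep2.

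**Figure D3:**
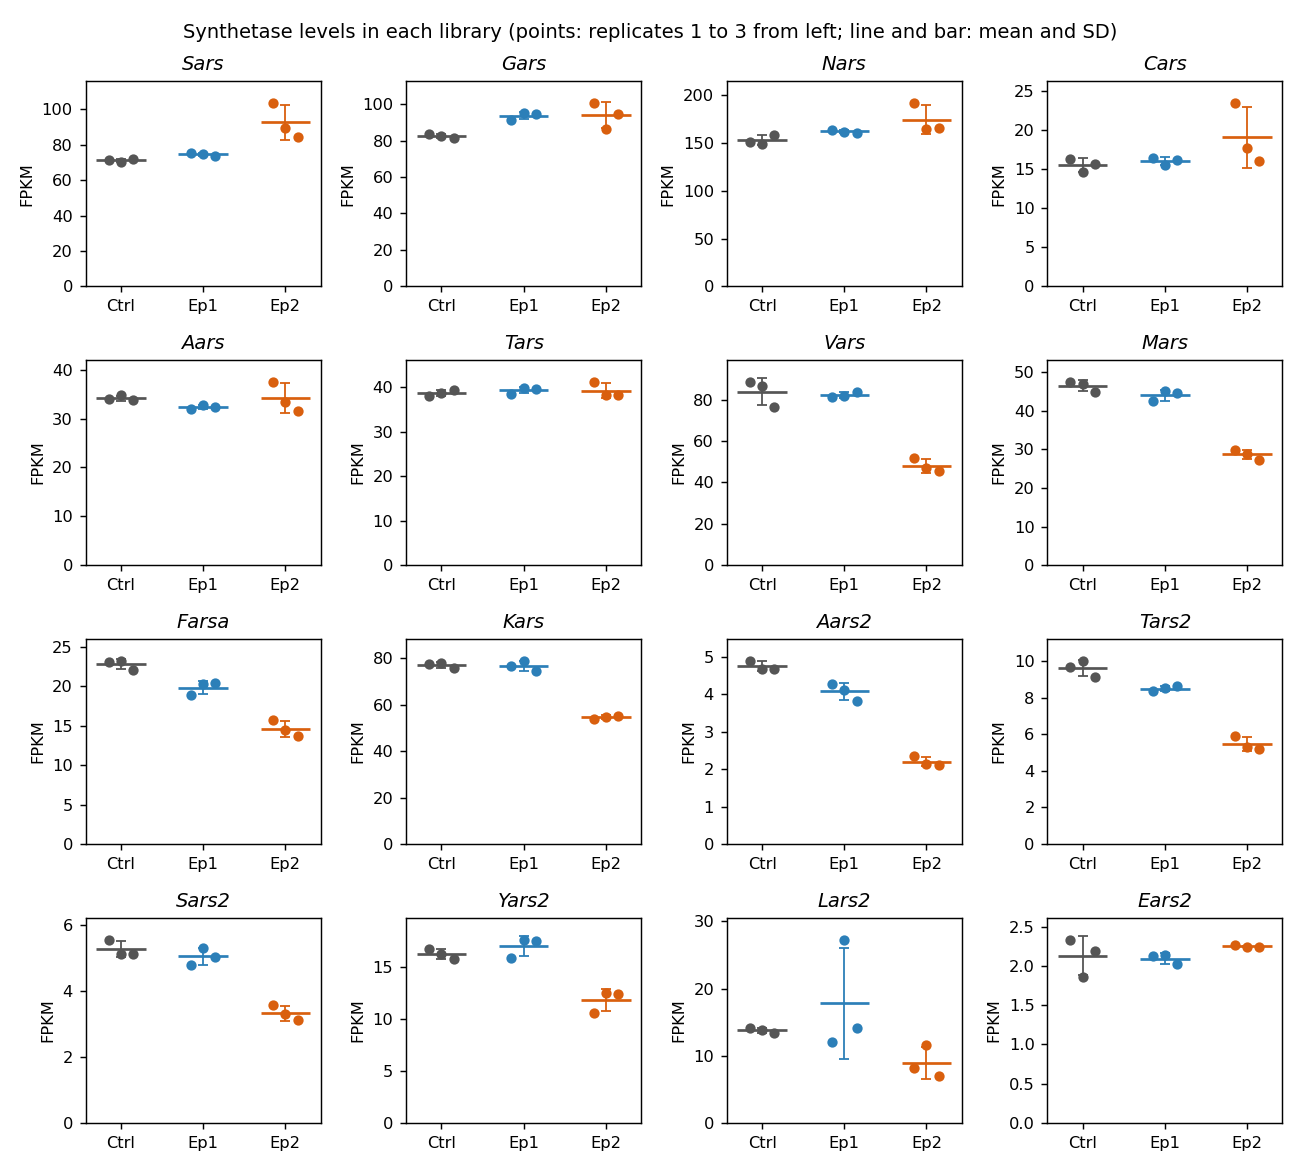
FPKM of 16 synthetase genes in each of the 9 libraries (axes from 0), with the mean and the SD of each group. Sars is above Ctrl in all Ep2 libraries, Aars and Tars overlap Ctrl, and Vars, Mars, Farsa, Kars, Aars2, Tars2, Sars2 and Yars2 are below Ctrl in all Ep2 libraries. Lars2 has a single high point in Ep1 (27.3 FPKM).

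Serine was the amino acid whose enzymes were called in opposite directions. Sars2 (mitochondrial seryl, chr7:28741992-28753871) had 5.56, 5.12 and 5.12 FPKM in Ctrl, 4.79, 5.31 and 5.04 in Ep1 and 3.56, 3.31 and 3.11 in Ep2, a change of -0.54 ± 0.06 (adjusted p = 9.14e-05), while Sars rose. The ratio of Sars to Sars2 was 12.9, 13.7 and 14.0 in Ctrl, 15.7, 14.1 and 14.6 in Ep1 and 29.1, 27.1 and 27.2 in Ep2. Ep2 was well above both other groups in all libraries. The mean ratio was 13.5 ± 0.608 in Ctrl and 27.8 ± 1.11 in Ep2 (two-sided exact permutation p = 0.1, the smallest that 3 against 3 libraries allow). Since this pair was picked for its opposite calls, the ratio is a description. Over the 16 pairs, both genes were lower in 6, and the mitochondrial log2 fold change was below the cytosolic one in 10. Phenylalanine is counted among the 6 both with Farsa and with Farsb. No share over all genes was formed for such pairs, so these counts are descriptions.

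Between the doses, most synthetase genes were again lower at 20 J/cm2. The Ep2 libraries are shared with the comparison against Ctrl, so the comparisons are not independent. In Ep2 against Ep1, 23 genes were called lower and 1 higher, beside 25.2% and 18.8% of all genes (44.0% in either direction), and the medians were -0.20 for the cytosolic and -0.24 for the mitochondrial genes. In 24 genes all Ep2 libraries lay below all Ep1 libraries and in 3 all lay above, beside 30.3% and 24.1% of all genes. The DEGs were Lars2 (-0.86), Vars (-0.76), Aars2 (-0.67) and Mars (-0.60), all lower, beside 3.97% of all genes lower and 1.94% higher. On the same scale of log2(FPKM + 1), the next largest fall was that of Tars2 (-0.55). Sars was the gene that was higher (0.30 ± 0.06, adjusted p = 0.00456). Gars had equal levels at both doses (0.00 ± 0.05), with means of 93.8 ± 2.09 FPKM in Ep1 and 93.9 ± 7.12 FPKM in Ep2. Of the MSC genes, 7 of 8 were lower, Rars (-0.13, adjusted p = 0.0422 with limma) and Dars (-0.19) among them. Between 5 and 7 were lower when single libraries were left out, with 5 without Ep1 replicate 2. Ep1 replicate 2 stands apart for Lars2. Without this library 17 genes were called lower, beside 18 without Ep1 replicate 3 and between 17 and 22 over the omission of each library.

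Lars2, the mitochondrial leucyl synthetase (chr9:123366927-123462666), had the largest SE of the 37 genes. It had 14.2, 13.8 and 13.4 FPKM in Ctrl, 11.97, 27.3 and 14.1 in Ep1 and 8.22, 11.6 and 6.94 in Ep2. Ep1 replicate 2 thus lay far above all other libraries, and Ep2 lay below Ctrl in all 3 libraries. The log2 fold change of Ep2 against Ctrl was -0.60 ± 0.29 and did not pass (adjusted p = 0.114). Without Ep1 replicate 2, which enters this comparison only through the shared spread, it was -0.60 with an adjusted p of 0.0141. Against Ep1, the change was -0.86 ± 0.29 (adjusted p = 0.0424), and without Ep1 replicate 2 it was -0.52 (adjusted p = 0.0526). This change passed in 7 of 17 alternatives, with adjusted p-values between 0.02 and 0.132, and the call was also lost without any single Ctrl library, Ep1 replicate 3, Ep2 replicate 1 or Ep2 replicate 3.

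The level of Lars2 moved with that of Gm23935 (chr16:11144125-11144181), a short listed gene that was chosen after its values were seen. Gm23935 had 6148, 5516 and 5139 FPKM in Ctrl, 6418, 15811 and 8626 in Ep1 and 4015, 5826 and 2748 in Ep2. The library that was highest for Lars2 was also highest for Gm23935. Over the 9 libraries, which share depth and scaling between the genes, Pearson's r was 0.96 and Spearman's rho 0.78, and r was 0.80 without Ep1 replicate 2. The part of this in the Lars2 values was not tested.

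**Figure D4:**
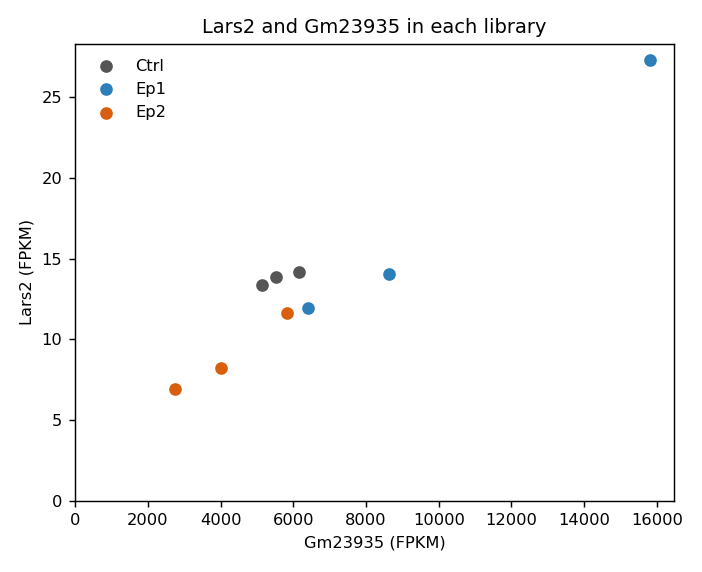
FPKM of Lars2 against FPKM of Gm23935 in the 9 libraries, coloured by group, both axes from 0. Ep1 replicate 2 stands apart at 27.3 FPKM of Lars2 and 15811 FPKM of Gm23935.

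Of 9 tested genes for proteins that work with the synthetases, 5 were called lower and 1 higher in Ep2 against Ctrl, beside 29.3% and 23.9% of all genes, with a median of -0.19. The lower genes included Eef1e1 (-0.34 ± 0.06) and Aimp2 (-0.19 ± 0.05), which encode scaffold proteins of the MSC. The groups overlapped for Aimp1, a further scaffold gene, with 16.9, 17.2 and 18.2 FPKM in Ctrl and 17.2, 15.8 and 15.4 in Ep2. Also lower were Dtd1 (-0.52 ± 0.09), which removes D-amino acids from tRNA, and Tarsl2 (-0.31 ± 0.06), which encodes a further threonyl synthetase outside the symbol rule. Yrdc, which makes a precursor of the t6A modification of tRNA, was higher in Ep1 (0.50 ± 0.04, adjusted p = 0.00213) and less so in Ep2 (0.14 ± 0.04, adjusted p = 0.0195), and the latter call was lost without Ctrl replicate 2 or Ep2 replicate 2.

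Of the 9 genes for selenocysteine and for the mitochondrial glutamine and initiator routes, 5 were lower and 0 higher in Ep2 (all genes 29.3% and 23.9%), with 1 higher at an unadjusted p below 0.05 and with voom. All 3 subunit genes of the amidotransferase that turns glutamate on tRNA into glutamine were lower, Gatb by -0.37 ± 0.07, Qrsl1 by -0.35 ± 0.09 and Gatc by -0.33 ± 0.07. Sephs1, of the selenophosphate synthetase family, was also lower (-0.28 ± 0.05). Mtfmt, which formylates the mitochondrial initiator, was the gene of this list called lower in Ep1 (-0.26 ± 0.07, adjusted p = 0.0358), a call that was lost when any Ctrl or Ep1 library or Ep2 replicate 2 was left out. Of 11 mitochondrial translation factors, 8 were lower and 1 higher (again beside 29.3% and 23.9%), with a median of -0.29, and 5 were lower and 0 higher (unadjusted 1) without Ep2 replicate 2 or Ep2 replicate 3. Tufm, the mitochondrial elongation factor that brings charged tRNA to the ribosome, had 50.8, 55.2 and 48.2 FPKM in Ctrl, 43.2, 47.0 and 40.8 in Ep1 and 32.7, 27.6 and 27.4 in Ep2 (-0.80 ± 0.08, adjusted p = 4.89e-05). The elongation factor genes Tsfm (-0.37 ± 0.06) and Gfm1 (-0.33 ± 0.05) were lower as well, and the initiation factor gene Mtif2 was the higher gene (0.16 ± 0.05, adjusted p = 0.0326), a call lost when any Ctrl or Ep2 library was left out.

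Of 29 cytosolic translation factors, 14 were lower and 5 higher in Ep2 (all genes 29.3% and 23.9%), with a median of -0.11. Eif3b (-0.53 ± 0.04), Eif5a (-0.54 ± 0.04) and Eef1d (-0.48 ± 0.05) were lower, and Eif1 (0.63 ± 0.08), which helps to select the start codon, was higher, as were Eif5b (0.19 ± 0.05) and Eif3e (0.18 ± 0.04). In Ep1, 8 of the 29, Eif1 (0.57), Abce1 (0.24) and Eif3e (0.18) among them, were higher and 0 lower (unadjusted 11 and 0, with voom 7 and 0), beside 6.32% and 4.97% of all genes, but 1 was higher when any Ep1 library, Ctrl replicate 1 or Ctrl replicate 2 was left out. In this comparison the count over all genes also depended on single libraries, with 111 called higher without Ep1 replicate 3 and 1183 without Ep2 replicate 1.

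Among ATF4 and its targets, more genes were called higher than lower. Of 26 genes, 14 were higher and 4 lower in Ep2 against Ctrl (all genes 23.9% and 29.3%), with a median of 0.21. Without Ep2 replicate 1, 12 were higher and 7 lower. This library was the highest Ep2 library for 19 of the 26, a count that was not made over all tested genes. Atf4 itself had 172, 162 and 166 FPKM in Ctrl, 231, 212 and 218 in Ep1 and 221, 226 and 240 in Ep2. Both doses were above Ctrl, by 0.40 ± 0.05 in Ep1 (adjusted p = 0.00538) and by 0.45 ± 0.05 in Ep2 (adjusted p = 5.86e-05). The cystine transporter gene Slc7a11 rose at both doses (0.96 ± 0.07 and 1.44 ± 0.07), and Vldlr (1.04 ± 0.08) and Atf5 (0.86 ± 0.07) were higher in Ep2. Of the lower genes, Shmt2 (-0.70 ± 0.06) and Phgdh (-0.28 ± 0.04) act in the synthesis of serine and glycine, and Slc7a5 (-0.52 ± 0.05) imports large neutral amino acids. Of the other genes of serine synthesis in the list, Psph was higher (0.26 ± 0.08, adjusted p = 0.0207) and Psat1 did not pass (0.06 ± 0.05), and the asparagine synthetase gene Asns was higher (0.50 ± 0.09). These 3 genes were named after their values were seen. In Ep1, 5 of the 26, including the arginine and lysine transporter gene Slc7a1 (0.32 ± 0.05), were higher and 0 lower (unadjusted 7 and 2, with voom 5 and 0), beside 6.32% and 4.97% of all genes, and between 3 and 8 were higher when single libraries were left out.

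Of 7 genes for the kinases and phosphatase of eIF2, 2 were higher and 2 lower in Ep2, shares of the same order as the 23.9% and 29.3% of all genes. Ppp1r15b, a subunit of the eIF2 phosphatase, was higher (0.47 ± 0.06), as was the kinase gene Eif2ak2 (0.25 ± 0.06). Eif2ak4, which encodes the kinase that senses uncharged tRNA, was lower (-0.21 ± 0.04), and so was its cofactor Gcn1l1 (-0.50 ± 0.05). In Ep1, Ppp1r15a (0.40 ± 0.08) and Ppp1r15b (0.31 ± 0.06) were higher and Gcn1l1 (-0.24 ± 0.05) was lower. In that comparison no gene of the list was called higher without Ctrl replicate 2, Ep1 replicate 1 or Ep1 replicate 3 (limma, unadjusted 2), and none lower without Ctrl replicate 1, Ctrl replicate 2, Ep1 replicate 2 or Ep1 replicate 3 (unadjusted 1).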

How the data were processed

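Per the file headers and the labels, the authors deposited 1 FPKM value (unit of all values used) for each gene and library. The methods name GRCm39 as the genome, and the submitters' processing notes list Bowtie 0.12.2 and mm8, but 99.9% of 37624 listed genes overlapped their GRCm38 position. The 9 single-library tables equal the joint table. FPKM times gene length gave whole fragments (tolerance 0.05) for 100% of values, from which depth was recovered. Intervals of counting error were not used, because the spread between libraries sets the precision.

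Genes with at least 1 FPKM in at least 3 libraries (11727, all 37 synthetases included) were tested on log2(FPKM + 1) with limma 3.58.1 (R 4.3.3) in a single fit of all 9 libraries (trend and robust), with Benjamini-Hochberg adjustment over all tested genes within each comparison. Genes were called at an adjusted p-value below 0.05, and as DEGs also at an absolute log2 fold change above 0.6, the thresholds of the study. The test behind the DEGs of the study is not given in the sources used here. Against Ctrl, 67 DEGs were higher and 26 lower in Ep1, and 387 higher and 688 lower in Ep2. The study reported more at both doses, so a DEG here need not have the same status there. Alternatives were no filter, a filter of 5 FPKM, a pseudocount of 0.1, median centring, a gene length correction, a replicate block, only the groups compared, voom on recovered fragments (14112 genes with at least 10 fragments), and the omission of each library. On simulated Ep2 and Ctrl libraries with 11727 genes, 72 of 100 genes changed by 0.5 and 94 of 100 changed by 1 (log2) were recovered, with 12 false calls. The simulation gave all genes the same dispersion, changed no other genes and held no outlying library. Its rates therefore check the code and are not the error rates of the real comparisons.

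The members, gene lists and tests were chosen with earlier results of these data known, and lists are described by counts and medians only. Genes given in every library are the up to 5 largest rises and falls among called genes of each comparison, the highest and lowest genes of each compartment, Gars and Kars, and amino acids with opposite calls. From other lists, the up to 3 called genes in each direction with the smallest adjusted p against Ctrl are named. Further genes (Aars, Tars, Cars, Farsb, Ears2, Gm23935, Atf4, Qrsl1, Aimp1, Aimp2) were named after their values were seen. The values of 1 mitochondrial gene are counted in the totals but not reported here. Python 3.11.15, numpy 2.4.6, pandas 2.3.3 and matplotlib 3.10.9 were also used.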

Additional observations from a re-analysis of the deposited data

How the results depend on the processing

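In Ep2 against Ctrl, between 21 and 24 synthetases were called lower and between 2 and 4 higher over the alternatives that tested all 37. With the filter of 5 FPKM, 29 were tested, of which 19 were lower and 3 higher. No named gene reversed its direction with a call. In Ep1 against Ctrl, 1 gene was called higher with the filter of 5 FPKM, the gene length correction, only the groups compared or voom, and 1 (filter of 5 FPKM) or 2 (only the groups compared, voom) were called lower. Over the omission of each library, between 0 and 1 were higher and between 0 and 3 lower, all of these calls appearing when an Ep2 library was omitted. The mitochondrial median in Ep2 against Ctrl was -0.43 with the filter of 5 FPKM, -0.38 with a pseudocount of 0.1 and -0.37 with voom, and in Ep2 against Ep1 -0.48, -0.35 and -0.34. The filter of 5 FPKM tested 9 of the 17 mitochondrial genes, so its medians are over a different set of genes. The cytosolic median in Ep2 against Ctrl was -0.15 with median centring. In Ep2 against Ep1, 2 genes were higher with the gene length correction or voom, and between 1 and 2 over the omission of each library (2 without Ep2 replicate 3). Among all genes of this comparison, voom called 3103 higher and 2776 lower, beside 2206 and 2950. The causes were not tested. The deviations of libraries from their group means had correlations between -0.06 and 0.07 for the same replicate number. For different numbers they were between -0.11 and 0.15. With 3 libraries a group, these values cannot decide whether libraries were handled in pairs. With a replicate block, 4 synthetases were higher and 22 lower in Ep2 against Ctrl, 1 and 21 in Ep2 against Ep1, and 0 in Ep1 against Ctrl. Nars lost its call in Ep2 against Ctrl without the filter (adjusted p = 0.0599), with only the groups compared (0.0543) and without Ctrl replicate 1 or 2 (limma). Lars2 lost its call in Ep2 against Ep1 without the filter (0.0775), with only the groups compared (0.0742), with voom (0.0931) and in 7 of the 9 omissions. With 3 libraries a group, the SE of the log2 fold change was between 0.04 (Kars) and 0.29 (Lars2).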
